A study of Mus musculus with 6 samples.

Results

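The 41 genes described here carry out the unfolded protein response and the integrated stress response, and were followed in RNA of brain endothelial cells after injection of the convulsant pentylenetetrazol (PTZ) or of phosphate-buffered saline (PBS). They were chosen by gene symbol, with earlier results of these data known, as sensors, regulators, targets, chaperones and degradation factors of these pathways. All 41 were found among the 53465 genes of the count matrix. The libraries came from the cortex of male mice 8 to 12 weeks old that carried tie2-Cre, ai9 and rpl22HA/HA, alleles shared by the PTZ and the PBS mice, and each group held 3 libraries, numbered 1, 2 and 4. Tie2-Cre is active in endothelium and also in part of the blood cell lineage, ai9 is a fluorescent reporter of Cre, and rpl22HA/HA gives a tagged ribosomal protein. The title of the series calls the data a translatome, while the labels give total RNA. The sources used here do not give the step that enriched the cells or their ribosomes, the PTZ dose or the collection time.

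Proteins destined for secretion or for membranes fold in the endoplasmic reticulum (ER). When unfolded proteins build up there, the sensors PERK, IRE1 and ATF6 switch on the unfolded protein response, which raises chaperones, disulfide isomerases and the ER-associated degradation machinery (ERAD). PERK also phosphorylates the initiation factor eIF2, as do kinases that sense amino acid shortage, heme shortage or double-stranded RNA. That shared branch, the integrated stress response, slows general translation while favouring translation of the transcription factor ATF4, whose targets serve amino acid supply, redox defence and, through CHOP, cell death. ATF4 is controlled largely by translation of its messenger RNA, and XBP1 by splicing of its own. Counts per gene do not hold splicing, phosphorylation or protein, so these were not analysed here. Whether the counts also reflect ribosome loading cannot be told, because the title names a translatome and the labels total RNA.

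Promoter sequence is shown first because the members' fold changes are later read beside it. In the RefSeq promoter table (build GRCm38.p6, 250 bases before to 50 bases after each annotated start), 36 of the 41 members had a window. Each window was searched on both strands for 3 elements. The ER stress response element (ERSE), bound by ATF6 together with NF-Y, is CCAAT and CCACG with 9 free bases between them. The related ERSE-II is ATTGG and CCACG with 1 free base between them. The composite C/EBP-ATF element (CARE), a target of ATF4, is TGATGNAA. ERSE was present in 8 of the 36 members, 7 of them ER chaperones, against 0.119% of all 32817 windows. ERSE-II was present in 2 members, Herpud1 and Dnajb11, against 0.0366% of all windows. CARE was present in 7 members, 5 of them ATF4 targets, against 3.97% of all windows. The core of a further element (UPRE, TGACGTGG) was in 0 members and in 0.676% of windows. Each member was counted once, although Atf5, Derl2, Psat1 and Vldlr had 2 windows, while the background counts windows. The members were chosen as targets and factors of these pathways, so their motif counts are no independent evidence. Herpud1 alone held 2 kinds of motif, which did not overlap, and a match is a description of letters, not a measured binding site.

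The stretches below run 5′ to 3′ on the gene's own strand, with the fixed letters of each motif in capitals. Motifs on the opposite strand appear as their reverse complement. Herpud1 is shown because it held both kinds of motif and had the smallest p-value of the members, Hspa5 and Hsp90b1 for ERSE, and Slc7a11, Asns and Nupr1 for CARE.
Herpud1 (chr8:94386297-94386407, plus strand, CARE on the opposite strand, then ERSE-II): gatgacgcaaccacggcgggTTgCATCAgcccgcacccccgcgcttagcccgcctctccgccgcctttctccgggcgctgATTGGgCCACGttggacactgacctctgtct
Hspa5 (chr2:34772005-34772063, plus strand, ERSE): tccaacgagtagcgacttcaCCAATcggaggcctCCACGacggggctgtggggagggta
Hsp90b1 (chr10:86705513-86705676, minus strand, ERSE in both orientations): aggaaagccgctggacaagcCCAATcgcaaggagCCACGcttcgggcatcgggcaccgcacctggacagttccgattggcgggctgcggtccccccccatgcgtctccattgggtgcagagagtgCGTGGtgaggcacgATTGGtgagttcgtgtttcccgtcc
Slc7a11 (chr3:50443633-50443699, minus strand, CARE in both orientations): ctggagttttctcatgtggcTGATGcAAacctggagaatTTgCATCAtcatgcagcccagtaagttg
Asns (chr6:7693210-7693252, minus strand, CARE): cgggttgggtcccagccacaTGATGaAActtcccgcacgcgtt
Nupr1 (chr7:126625553-126625600, minus strand, CARE on the opposite strand): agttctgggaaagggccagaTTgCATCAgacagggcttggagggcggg

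**Figure D1:**
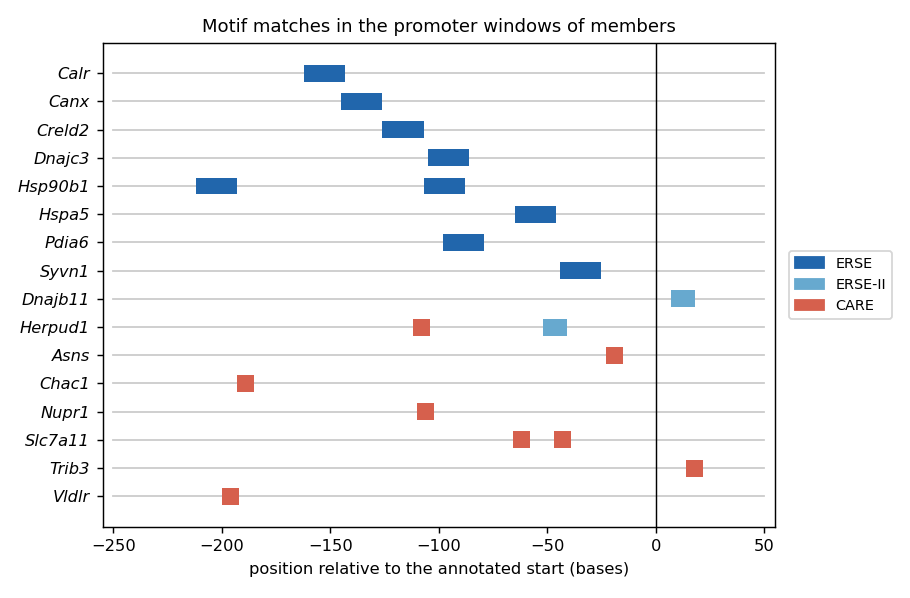
Positions of ERSE, ERSE-II and CARE matches in the promoter windows of the 16 members that held at least 1, in bases from the annotated start, with each grey line marking the window searched. ERSE lies in chaperone genes and Syvn1, CARE mainly in ATF4 targets, and Herpud1 holds both CARE and ERSE-II.

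Gene counts summed to 11107481 to 15406967 reads per library. PTZ replicate 1 stood apart: 9.34% of its reads fell in no feature, where the range over the rest was 2.99% to 5.19%. Levels are reads per 1000000 after TMM scaling (CPM), given as mean ± SD over n = 3 libraries, and fold changes are PTZ over PBS on the log2 scale with a standard error (SE). Endothelial markers were abundant in every library (Pecam1 556 to 704 CPM in PTZ and 476 to 612.5 CPM in PBS, Cldn5 463.5 to 1520 CPM in PTZ and 491.5 to 1240 CPM in PBS). The labels do not say whether replicates are separate animals, so p-values measure the spread between libraries, which may be technical. In bulk RNA, fewer cells of a type and less RNA per cell cannot be told apart. Markers of other cells differed in level between the libraries. Of 10 pericyte and smooth muscle markers 9 were tested and 9 had a positive fold change, with summed levels of 346 to 1089 CPM in PTZ and 198 to 565 CPM in PBS. Of 8 fibroblast markers 7 were tested and 7 were positive, with sums of 87.96 to 288 CPM in PTZ and 92.9 to 150 CPM in PBS, while Dpt had 0 or 1 read in every library. All 10 microglia and macrophage markers were negative, with sums of 1702 to 2580 CPM in PTZ and 2556 to 3110 CPM in PBS. All 5 red blood cell markers were negative, with sums of 5788 to 11683 CPM in PTZ and 6577 to 10852 CPM in PBS. Tested markers were positive in 5 of 6 for astrocytes, 4 of 6 for neurons and 2 of 6 for oligodendrocytes. Of 10 endothelial markers 7 were positive. In 2 of them, Cdh5 and Flt1, PTZ lay wholly above PBS, as in 7.3% of all genes. The part of all these markers in the members' differences was not tested.

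**Figure D2:**
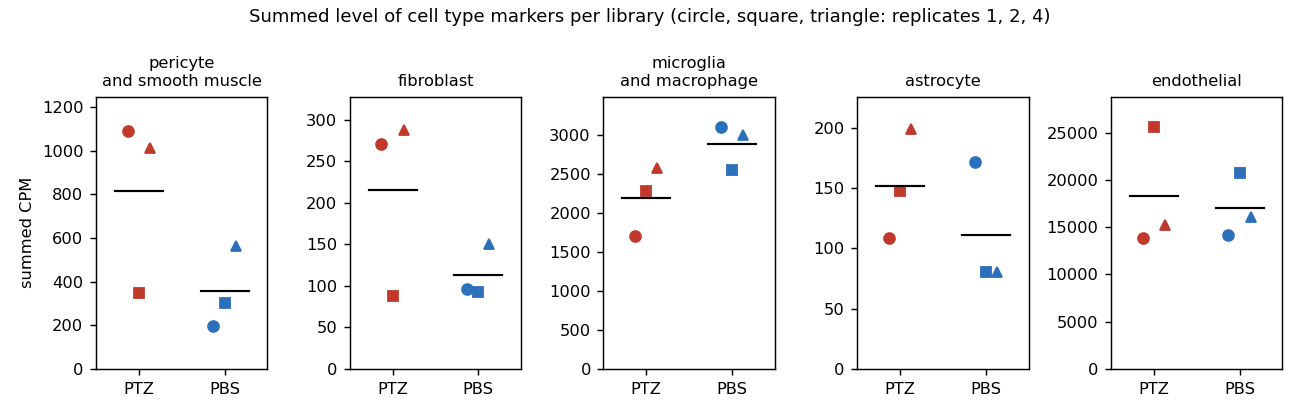
Summed CPM of 5 marker lists in each library, PTZ in red and PBS in blue, with a line at the group mean and the replicate number given by the symbol. Pericyte, smooth muscle and fibroblast sums are highest in PTZ replicates 1 and 4, microglial sums are lower on average in PTZ, and every list has overlapping groups.

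Set against PBS, most members stood slightly higher in PTZ, and no member passed the threshold. The 2 members with the clearest separation were Herpud1, an ER membrane protein that supports degradation of misfolded proteins, averaging 367 ± 118 CPM in PTZ, against 184 ± 26.7 CPM in PBS, and Atf4 itself, averaging 191 ± 15.4 CPM in PTZ, against 126 ± 6.43 CPM in PBS. The ER chaperones had a median log2 fold change of 0.19, and the ATF4 targets had both signs. In edgeR's quasi-likelihood test with Benjamini-Hochberg adjustment over 13768 genes, 40 members were tested, Vldlr being too low, and 0 had an adjusted p under 0.05, against a background of 0.0% of all genes. At an unadjusted p under 0.05, 2 of 40 members were higher in PTZ (5.0%), where 3.83% of all genes were, and 0 were lower, where 3.38% of all genes were (7.21% in either direction). These shares are near the background. In DESeq2 0 members passed, against 0.385% of all genes higher and 0.167% lower, and 3 members were higher and 0 lower with an unadjusted p below the same limit, against 4.27% and 3.69% of all genes. In limma-voom 0 members passed, against 0.00726% higher and 0.0% lower, and 3 were higher and 0 lower unadjusted, against 4.07% and 4.13%. In edgeR's exact test 0 passed, against 0.269% and 0.145%, and 2 were higher and 0 lower unadjusted, against 3.9% and 3.28%.

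In edgeR blocked by replicate number 0 of 40 members passed. Unadjusted, 3 of the 40 were higher and 0 lower, against 5.59% and 5.31% of all genes. Without the low-count filter 41 members were tested and 0 passed, against 0.221% and 0.127% of all genes. Unadjusted, 5 of the 41 were higher and 0 lower, against 3.96% and 3.21%. With the block in DESeq2 1 of 40 members passed higher, against 0.959% higher and 0.581% lower. Unadjusted, 5 of the 40 were higher and 0 lower, against 6.2% and 6.58%.

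Direction was more uniform than the calls. The log2 fold change was above 0 in 30 of the 40 tested members (75%), where it was in 52.7% of all genes, and the median was 0.22 against 0.03 over all genes. The count of positive members ran from 27 to 31 over 16 alternative fits. The members were chosen with earlier results of these data known, and their values come from the same libraries. The shares given here therefore describe the members and are not independent support. In 6 members (15.0%) the lowest PTZ library exceeded the highest PBS library, where 7.3% of all genes did so, and in 0 members the reverse held, where 7.04% did (14.3% in either direction). In 14 members (35.0%) PTZ was higher within every pair of equal replicate number, where 18.5% of all genes were. The 6 were Atf4, Ppp1r15b, Dnajb9, Dnajb11, Sel1l and Herpud1. Summed over all 41 members the level was 4802, 4557 and 4524 CPM in PTZ replicates 1, 2 and 4, against 3502, 4346 and 4047 CPM in PBS replicates 1, 2 and 4. The groups did not overlap in this sum, but they did without Herpud1, at 4463, 4291 and 4027 CPM in PTZ, against 3329, 4131 and 3882 CPM in PBS. Leaving out Herpud1 was chosen after its values were seen.

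**Figure D3:**
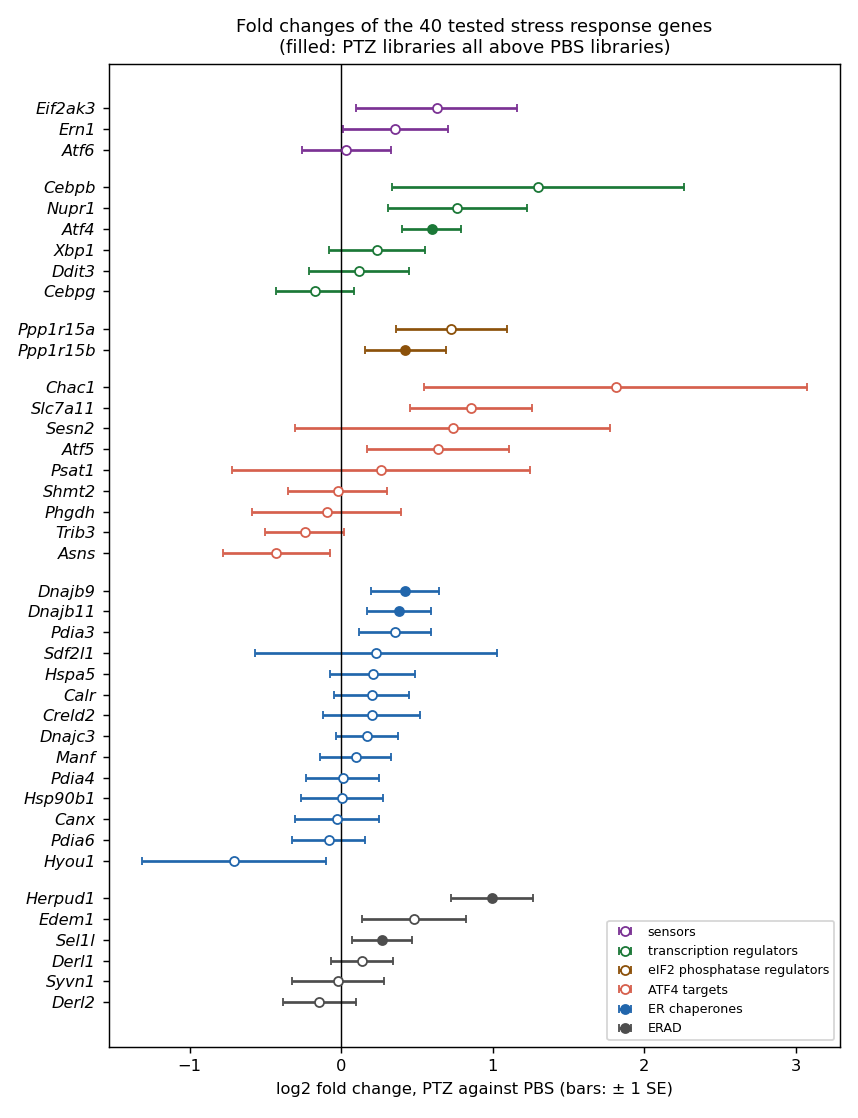
Log2 fold change of PTZ over PBS for the 40 tested members by role, with bars of 1 SE, and filled symbols where the groups did not overlap. Most points lie slightly right of 0, and Herpud1 (0.99) and Atf4 (0.60) combine a larger value with a short bar.

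**Figure D4:**
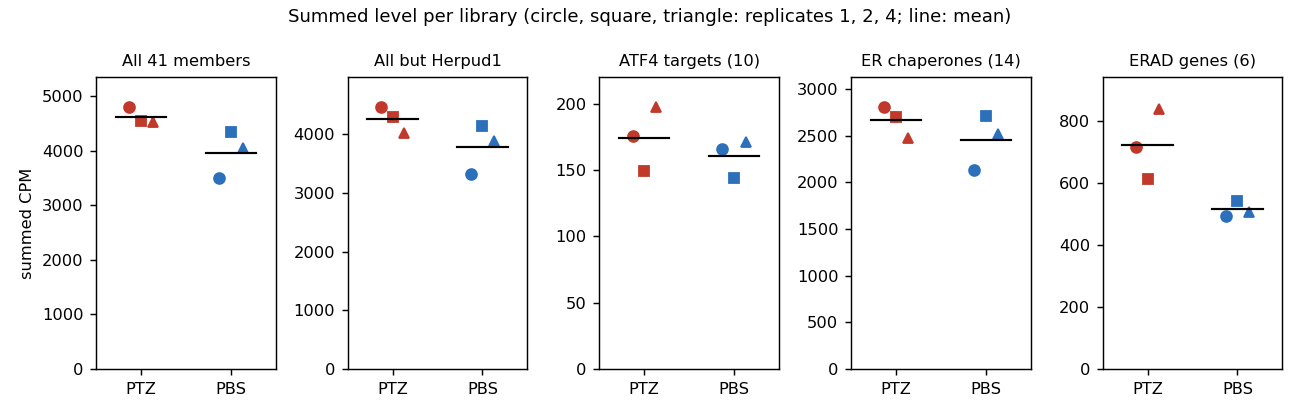
Summed CPM per library of all members, of all members but Herpud1, and of the ATF4 targets, the ER chaperones and the ERAD genes, PTZ in red and PBS in blue, with a line at the group mean. The PTZ and PBS libraries separate for all members and for the ERAD genes, and overlap for the ATF4 targets and the ER chaperones.

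All 3 sensors had a positive fold change, and 0 had an unadjusted p under 0.05, where 7.21% of all genes did in either direction. Eif2ak3, which encodes PERK, averaged 8.10 ± 2.80 CPM in PTZ, against 5.22 ± 1.99 CPM in PBS (log2 fold change 0.63, SE 0.53). It was higher in PTZ within each of the 3 pairs of equal replicate number, although the groups overlapped, and the fold change ran from 0.32 without PTZ replicate 1 to 0.96 without PBS replicate 1. Ern1, which encodes IRE1 alpha, had a fold change of 0.36 (SE 0.35), which ran from 0.18 without PTZ replicate 4 to 0.56 without PBS replicate 1. Atf6, the membrane-bound transcription factor released by proteolysis, had 0.03 (SE 0.29), a value that was negative in 6 of the 16 alternatives.

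Among the transcription regulators, Atf4 (ENSMUSG00000042406, chromosome 15, 80255184 to 80257541, plus strand, GRCm38) was the steadiest. It stood at 187, 178.5 and 208 CPM in PTZ replicates 1, 2 and 4, against 120, 126 and 133 CPM in PBS replicates 1, 2 and 4. Every PTZ library was above every PBS library, and the spread within each group was small. The log2 fold change was 0.60 (SE 0.19), with an unadjusted p of 0.0113 and an adjusted p of 0.636 in edgeR's quasi-likelihood test. Over the 16 alternatives it ran from 0.53 to 0.64, the adjusted p from 0.111 to 0.9998, and the unadjusted p was under 0.05 in 15 of 16, the exception being the fit without PBS replicate 1.

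Ddit3, which encodes CHOP, the factor that links a lasting stress response to cell death, showed no such separation. Its level was 123, 151 and 112 CPM in PTZ, against 58.95, 156 and 139 CPM in PBS. PBS replicate 1 alone was low, and the other 2 PBS libraries lay among or above the PTZ libraries. The fold change of 0.12 (SE 0.33) was negative without PTZ replicate 2 (-0.05) and without PBS replicate 1 (-0.20). Ddit3 shares 4.73% of its exon bases with genes on the opposite strand, so a small part of its reads cannot be assigned with certainty.

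Xbp1, the factor activated by IRE1 through splicing, stood at 248, 449 and 187 CPM in PTZ, against 269, 272 and 212 CPM in PBS. PTZ replicate 2 was the highest and PTZ replicate 4 the lowest of all libraries. The fold change of 0.24 (SE 0.32) was negative without PTZ replicate 2 (-0.24). Cebpg, a dimer partner of ATF4, averaged 103 ± 14.2 CPM in PTZ, against 115.5 ± 38.3 CPM in PBS.

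Nupr1, a small stress-induced chromatin protein with CARE in its promoter, varied widely between libraries. It stood at 308, 85.4 and 264 CPM in PTZ, against 72.2, 123.8 and 191 CPM in PBS, so that PTZ replicate 2 lay among the PBS libraries. The fold change was 0.77 (SE 0.46), and it ran from 0.44 without PTZ replicate 1 to 1.13 without PBS replicate 4. The pericyte and smooth muscle sum was 1089, 346 and 1013 CPM in the same PTZ libraries, against 198, 302 and 565 CPM in PBS, and its part in Nupr1 was not tested. Cebpb, which belongs to the C/EBP partners of ATF4, averaged 3.98 ± 2.35 CPM in PTZ, against 1.63 ± 1.85 CPM in PBS. Its fold change of 1.30 (SE 0.97) ran from 0.67 to 2.76 over the alternatives, and 20.7% of its exon bases overlap another gene.

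The eIF2 phosphatase regulators, which end the integrated stress response by restoring translation, both had positive fold changes. Ppp1r15a (GADD34), the inducible subunit, stood at 36.5, 35.6 and 71.4 CPM in PTZ, against 21.2, 42.6 and 23.2 CPM in PBS. PBS replicate 2 lay above PTZ replicates 1 and 2, and PTZ replicate 4 was the highest. The fold change was 0.73 (SE 0.36, unadjusted p = 0.0733, adjusted p = 0.702 in edgeR), and 1.08 without PBS replicate 2 against 0.32 without PTZ replicate 4. Ppp1r15b, the constitutive subunit, stood at 33.8, 26.7 and 25.4 CPM in PTZ, against 21.4, 24.0 and 18.7 CPM in PBS. The groups did not overlap but lay close, with a fold change of 0.42 (SE 0.27), and 11.4% of its exon bases overlap another gene.

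**Figure D5:**
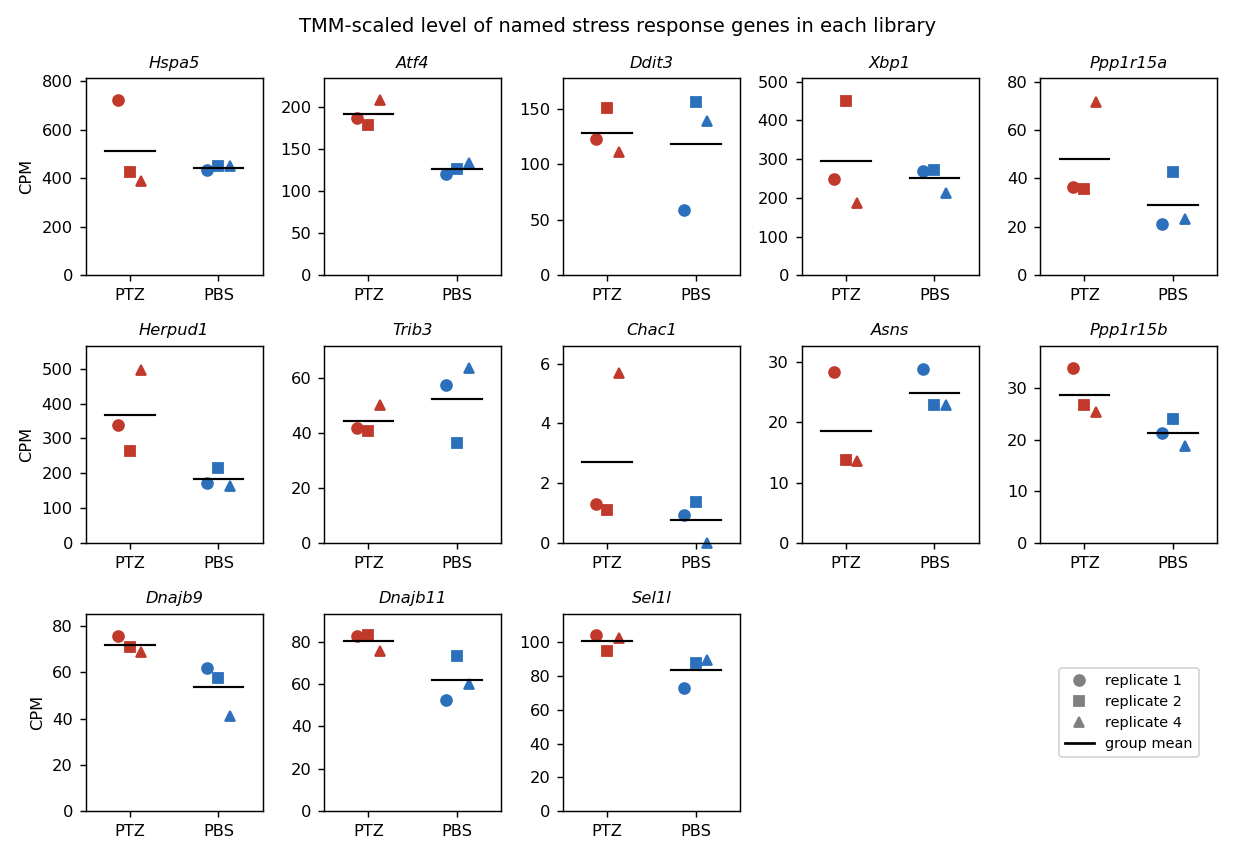
CPM of 13 members in each library, with PTZ in red, PBS in blue, a symbol for each replicate number and a line at the group mean. Atf4, Herpud1, Ppp1r15b, Dnajb9, Dnajb11 and Sel1l separate by group, while the PTZ mean of Hspa5 and of Xbp1 is above the PBS mean through 1 library each.

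Of the 10 members that are ATF4 targets 9 were tested, 5 had a positive fold change and 4 a negative one. Of the 9, 0 had an unadjusted p under 0.05 or groups that did not overlap. Over all genes 7.21% had such a p and 14.3% did not overlap, in either direction, so a count of 0 among 9 genes is near the background. The median log2 fold change was 0.26 and the range -0.43 to 1.81. That median was -0.12 without PTZ replicate 4, -0.02 when blocked by replicate number and -0.03 in limma-voom, so its sign rests on 1 library and on the fit.

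Of the 4 enzymes of amino acid synthesis, 3 had a negative fold change and 1 a positive one. Asns, asparagine synthetase, stood at 28.3, 13.7 and 13.5 CPM in PTZ, against 28.9, 22.9 and 22.9 CPM in PBS. It was lower in PTZ within all 3 pairs, but PTZ replicate 1 was level with the highest PBS library. The fold change was -0.43 (SE 0.35) and -0.87 without PTZ replicate 1, and it was negative in all 16 alternatives. The unadjusted p was under 0.05 in 1 of them, the fit without PTZ replicate 1. Phgdh, the first enzyme of serine synthesis, had a fold change of -0.10 (SE 0.49), and Shmt2, the mitochondrial serine hydroxymethyltransferase, -0.02 (SE 0.33). Psat1, the second enzyme of serine synthesis, had 18, 9 and 277 reads in PTZ, against 74, 34 and 111 reads in PBS. Its fold change of 0.26 (SE 0.98) rested on PTZ replicate 4 and was -2.29 without it. The summed level of astrocyte markers, 109, 148 and 199.5 CPM in PTZ, against 172, 80.1 and 80.3 CPM in PBS, was also highest in PTZ replicate 4, and its part in Psat1 was not tested.

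Trib3, a pseudokinase that restrains ATF4 and CHOP activity, stood at 42.1, 40.9 and 50.5 CPM in PTZ, against 57.5, 36.4 and 63.9 CPM in PBS. The PTZ libraries lay inside the PBS range, with a fold change of -0.24 (SE 0.26) that was negative in all 16 alternatives. Chac1, which degrades glutathione, had 18, 11 and 91 reads in PTZ, against 15, 14 and 0 reads in PBS, or 1.32, 1.09 and 5.70 CPM against 0.937, 1.38 and 0 CPM. PTZ replicates 1 and 2 were level with PBS replicates 1 and 2. Its fold change of 1.81 (SE 1.26) was the highest of the members and 0.64 without PTZ replicate 4. Sesn2, a sestrin that restrains mTORC1, had 35, 7 and 176 reads in PTZ, against 100, 11 and 16 reads in PBS, and was likewise highest in PTZ replicate 4. Its fold change of 0.74 (SE 1.04) was -0.81 without that library.

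Slc7a11, the cystine importer that feeds glutathione synthesis, stood at 64.7, 19.2 and 35.4 CPM in PTZ, against 27.0, 17.8 and 21.1 CPM in PBS, higher within all 3 pairs and with overlapping groups. The fold change was 0.86 (SE 0.40, unadjusted p = 0.0594, adjusted p = 0.70 in edgeR) and 0.32 without PTZ replicate 1. In edgeR blocked by replicate number its unadjusted p was under 0.05, 1 of 3 members so placed in that fit. Atf5, a transcription factor translated under eIF2 phosphorylation, had a fold change of 0.64 (SE 0.47) and was higher within all 3 pairs. It was 0.27 without PTZ replicate 2 and 0.99 without PTZ replicate 1. Vldlr, a lipoprotein receptor, had 1 to 9 reads in PTZ and 2 to 11 in PBS and was not tested.

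All 14 ER chaperones and folding enzymes were tested, 11 had a positive fold change, and the median was 0.19 and the range -0.71 to 0.42. Among them 0 had an unadjusted p under 0.05, where 7.21% of all genes did in either direction. Per kilobase of merged exon the mean levels of Calr, Hspa5 and Hsp90b1 were 156, 121 and 120 CPM per kilobase in PTZ and 135, 105 and 119 CPM per kilobase in PBS. These are the calcium-binding lectin chaperone calreticulin, BiP and GRP94, and together with Herpud1 (157 in PTZ and 78.9 in PBS) they were the members with the highest level per length in PTZ. Hyou1 and Sdf2l1, at under 4 CPM per kilobase in both groups, were the lowest chaperones.

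Hspa5, the sensor-bound chaperone whose RNA is the usual readout of ER stress, stood at 721, 427 and 390 CPM in PTZ, against 435, 449 and 449 CPM in PBS. PTZ replicate 1 alone was high, and the other PTZ libraries lay below every PBS library. The fold change of 0.21 (SE 0.28, adjusted p = 0.896 in edgeR) was -0.12 without PTZ replicate 1, the library with the most reads in no feature. Hsp90b1, which shares 15.7% of its exon bases with other genes, had a fold change of 0.01 (SE 0.27), Canx -0.03 (SE 0.28), Pdia4 0.01 (SE 0.24) and Pdia6 -0.08 (SE 0.24). Pdia4 was the steadiest member, with its highest library 1.22 times its lowest. Hyou1, an ER relative of HSP70, had the lowest fold change of the members, -0.71 (SE 0.61), and was lower in PTZ within all 3 pairs.

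Dnajb9 and Dnajb11, both J-domain co-chaperones, were the 2 of 14 chaperones whose groups did not overlap. PTZ lay wholly above PBS in 7.3% of all genes. Dnajb9, an ERAD cofactor that also restrains IRE1, stood at 75.8, 70.9 and 68.7 CPM in PTZ, against 61.8, 57.7 and 41.3 CPM in PBS, a fold change of 0.42 (SE 0.22, unadjusted p = 0.0892, adjusted p = 0.713 in edgeR). Dnajb11, a BiP cofactor with ERSE-II just after its start, stood at 82.9, 83.1 and 75.4 CPM in PTZ, against 52.3, 73.1 and 59.9 CPM in PBS, a fold change of 0.38 (SE 0.21, unadjusted p = 0.102). Both fold changes were positive in all 16 alternatives, and that of Dnajb9 was 0.23 without PBS replicate 4. Dnajc3 (p58IPK), another J-domain protein, had overlapping groups and averaged 145 ± 4.08 CPM in PTZ, against 129 ± 20.4 CPM in PBS. The other 4 chaperones, Sdf2l1, Pdia3, Manf and Creld2, had fold changes of 0.23, 0.36, 0.10 and 0.20, with overlapping groups.

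The ERAD group was led by Herpud1 (ENSMUSG00000031770, chromosome 8, 94386438 to 94395377, plus strand, GRCm38). It stood at 338, 265 and 496.5 CPM in PTZ replicates 1, 2 and 4, against 173, 215 and 165 CPM in PBS replicates 1, 2 and 4. Every PTZ library lay above every PBS library, and the distance was smallest between the libraries numbered 2. The log2 fold change was 0.99 (SE 0.27), a fold of 1.99, with an unadjusted p of 0.00421 and an adjusted p of 0.534 in edgeR's quasi-likelihood test. The unadjusted p was under 0.05 in all 16 alternatives, over which the fold change ran from 0.71 (without PTZ replicate 4) to 1.14 (without PTZ replicate 2) and the adjusted p from 0.0126 to 0.9998. It passed in 1 alternative, DESeq2 blocked by replicate number.

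The other 5 ERAD members had fold changes of -0.14 to 0.48. Sel1l, the scaffold of the HRD1 ubiquitin ligase, stood at 105, 95.1 and 103 CPM in PTZ, against 73.3, 88.1 and 89.6 CPM in PBS, without overlap, and had a fold change of 0.27 (SE 0.20). Syvn1, the ligase itself, had -0.02 (SE 0.30). Edem1, a mannosidase-like factor that hands glycoproteins to ERAD, had 0.48 (SE 0.34) and 0.24 without PTZ replicate 1, and Derl1 and Derl2, membrane proteins of the export channel, had 0.14 (SE 0.20) and -0.14 (SE 0.24). The sum of the 6 ERAD genes was 716, 611 and 838 CPM in PTZ, against 495, 542 and 507 CPM in PBS. Without Herpud1 it was 378, 346 and 342 CPM in PTZ, against 321, 328 and 342 CPM in PBS. The groups overlapped without it, and Herpud1 made up 47.2%, 43.4% and 59.2% of the ERAD sum in PTZ, against 35.0%, 39.6% and 32.5% in PBS.

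Median log2 fold changes were 0.26 for ATF4 targets, 0.19 for ER chaperones and 0.20 for ERAD genes, against 0.03 over all genes. The differences between these medians were not tested. The summed ATF4 targets were 176, 150 and 198 CPM in PTZ, against 166, 144 and 171 CPM in PBS. The summed chaperones were 2812, 2706 and 2478 CPM in PTZ, against 2138, 2714 and 2519 CPM in PBS. As a share of the chaperone sum, the ATF4 targets made up 6.26%, 5.54% and 7.98% in PTZ, against 7.76%, 5.30% and 6.80% in PBS, with overlapping groups. Read by promoter, the 10 members with ERSE or ERSE-II had a median of 0.19 and a range of -0.08 to 0.99, and the 6 tested members with CARE a median of 0.81 and a range of -0.43 to 1.81. The 20 members whose window held none of these motifs had a median of 0.31. Herpud1 belongs to both motif groups. Of the 6 tested members with CARE 4 were positive. The other 2, Asns and Trib3, were negative in all 16 alternatives. The CARE group also includes Chac1, Nupr1 and Slc7a11, which were positive in all 16 alternatives but varied in size with single libraries. Chac1 fell to 0.64 without PTZ replicate 4, and Nupr1 and Slc7a11 to 0.44 and 0.315 without PTZ replicate 1.

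Genes of the same pathways outside the 41 were followed as 6 lists with 90 genes, of which 81 were tested. Here 5 were higher and 2 lower in PTZ at an unadjusted p under 0.05, 0 passed the adjusted threshold in edgeR, and 42 had a positive fold change. Of all genes 3.83% were higher, 3.38% lower and 52.7% positive, so these counts are near the background. All 5 higher ones came from 1 list of 22 further targets of ATF4 and CHOP. Of these 15 were tested and 13 were positive, with a median of 0.42. The lists were chosen with earlier results of these data known, so these counts are no independent support. The 3 genes of that list with the smallest p follow. Ddit4, an inhibitor of mTORC1 that also responds to glucocorticoids and hypoxia, stood at 54.8, 145 and 111 CPM in PTZ, against 25.7, 38.6 and 22.8 CPM in PBS (fold change 1.83, SE 0.36). Slc38a2, the amino acid transporter SNAT2, stood at 153, 85.7 and 120 CPM in PTZ, against 38.0, 60.5 and 55.6 CPM in PBS (1.22, SE 0.28). Gpt2, a mitochondrial alanine transaminase, stood at 18.3, 5.26 and 12.6 CPM in PTZ, against 5.25, 3.46 and 4.16 CPM in PBS (1.49, SE 0.54). In each of these 3 genes, picked for a small p, the groups did not overlap. In the list, PTZ lay wholly above PBS in 6 of 15 tested genes and wholly below in 1, against 7.3% and 7.04% of all genes. The rest of the 5 higher genes, named after their values were seen, were Ndrg1 (0.63, SE 0.25) and Atf3 (1.71, SE 0.76). For Atf3, PBS replicate 2 (44.4 CPM) lay close to the lowest PTZ library (47.8 CPM). The remaining ERAD factors were positive in 11 of 17 tested genes with a median of 0.20, and 0 of them had an unadjusted p under 0.05. Other ER folding factors were positive in 7 of 15 tested genes with a median of -0.003. Genes of ATF6 and XBP1 processing were positive in 4 of 9 tested genes with a median of -0.067.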

How the data were processed

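The authors deposited raw read counts per Ensembl gene in 1 matrix of 6 columns, per the file headers, and a scaled signal per library, which is the same count divided by 1 factor per library (whole within 0.01 reads for 100% of values). Tools listed in the submitters' processing notes, without roles, are edgeR, HTSeq, TopHat2 2.1.1 and CASAVA, with the build GRCm38. The sources used here do not give the annotation release or the strand setting, so reads of genes overlapping on opposite strands cannot be told apart. The 5 summary rows that name no gene (16.1% to 22.9% of reads) were left out. Coordinates and merged exon lengths are from GENCODE M21 (GRCm38), promoter windows from RefSeq (GRCm38.p6).

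The members and all lists were chosen with earlier results of these data known. Counts were filtered with filterByExpr (minimum count 10, minimum total 15), which left 13768 genes, normalised by TMM, and compared in edgeR 4.0.16 (glmQLFit, glmQLFTest, R 4.3.3) on the group alone, 2-sided, with Benjamini-Hochberg adjustment over all genes and a threshold of 0.05. The common dispersion was 0.221. Each SE is the log2 fold change divided by the root of its F statistic. DESeq2 1.42.0, limma 3.58.1 and other scalings were alternatives. Values in every library are given for 9 key members and for those at an unadjusted p under 0.05 or without overlap. Other members given by library were chosen after their values were seen. From the wider lists up to 3 genes per direction with the smallest p are named, and the others counted.

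The groups share the replicate numbers 1, 2 and 4 from the sample titles. Deviations from group means correlated at 0.167, 0.197 and 0.217 between equal numbers, and each exceeded 0.1, the limit set for pairing. Between unequal numbers the correlations ran from -0.127 to -0.062. Deviations from a group mean cancel out within the group, so positive values between equal numbers bring negative ones between unequal numbers. The negative values are therefore no separate support for pairing. The reported fold changes, SEs and p-values come from the fit on the group alone, which ignores any pairing by number. The fit blocked by number was an alternative. No 2 libraries of a group agreed within sampling noise (chi-square per degree of freedom 43.8 to 99.1).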

Additional observations from a re-analysis of the deposited data

How the results depend on the processing

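The called members, 0 higher and 0 lower, were the same in 14 alternatives. Among 2 added after seeing the data, DESeq2 with the replicate block called 1, Herpud1, and limma-voom with the block 0. Of the 13 members named by rule, 10 kept their direction in every setting, and 3 did not when 1 library was left out: Hspa5 (-0.12 without PTZ replicate 1, up to 0.365), Xbp1 (-0.245 without PTZ replicate 2, up to 0.473) and Ddit3 (-0.053 without PTZ replicate 2, -0.205 without PBS replicate 1, up to 0.342). Of the other members given by library, Psat1 was positive in 11 of 16 alternatives and Sesn2 in 15, with -2.29 and -0.81 without PTZ replicate 4. Members at an unadjusted p under 0.05 were 2 higher and 0 lower, against 3.83% and 3.38% of all genes. With 1 library left out, 1 to 5 members were higher and 0 to 1 lower. Of the 14347 to 14755 genes tested in those fits, 366 to 673 were higher and 271 to 955 lower. Without the low-count filter 5 members were higher, against 3.96% of all genes. The block gave 5 in DESeq2, against 6.2%, and 4 in limma-voom, against 971 of 13768 genes.

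The median of the ER chaperones, 0.19, was 0.12 with the authors' scaling, 0.12 in limma-voom, 0.13 with the replicate block, 0.12 with the block in DESeq2 and 0.066 to 0.182 with 1 library left out. That of the ERAD genes, 0.20, was 0.14 with the authors' scaling and 0.125 to 0.242 with 1 library left out.

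Over all genes, calls were 0 higher and 0 lower. They were 77 and 44 without the low-count filter, 53 and 23 in DESeq2, 37 and 20 in the exact test, and 1 and 0 in limma-voom. The replicate block gave 0 and 0 in edgeR, 132 and 80 in DESeq2, and 11 and 2 in limma-voom. Leaving out 1 library gave 0 to 8 higher, the 8 without PBS replicate 2, and 0 lower. At an unadjusted p under 0.05, 528 genes were higher and 465 lower. These were 1377 and 1117 without the filter, 769 and 731 with the block in edgeR, 853 and 906 with it in DESeq2 and 971 and 850 in limma-voom. With 1 library left out they were 366 to 673 higher and 271 to 955 lower. The authors' scaling moved the share of positive genes from 52.7% to 47.2%. The causes were not tested. Low counts limit Chac1, Sesn2, Psat1, Cebpb and Vldlr.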

Other observations

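Of 14 tested genes that serve the import of proteins into the ER, 11 had a negative log2 fold change and 3 a positive one, where 52.7% of all genes were positive. The median was -0.26, against 0.03 over all genes. Among these 14 genes 0 had an unadjusted p under 0.05 in edgeR, where 7.21% of all genes did in either direction. The difference from the chaperones was not tested. The summed level was 2598, 3704 and 3145 CPM in PTZ replicates 1, 2 and 4, against 3413, 3652 and 3815 CPM in PBS, so the groups overlapped through PTZ replicate 2.

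Of 11 genes for other eIF2 kinases and for eIF2 and eIF2B subunits 7 were negative, with a median of -0.18. Eif2b1, a regulatory subunit of the exchange factor that phosphorylated eIF2 inhibits, stood at 39.7, 36.9 and 41.1 CPM in PTZ, against 52.5, 50.1 and 74.8 CPM in PBS, without overlap (log2 fold change -0.59, SE 0.24, unadjusted p = 0.031, adjusted p = 0.684 in edgeR). Ostc, a subunit of the complex that glycosylates proteins as they enter the ER, stood at 107, 127 and 145 CPM in PTZ, against 193, 152 and 250 CPM in PBS (-0.65, SE 0.24, adjusted p = 0.648 in edgeR).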
